A study of Haematococcus lacustris with 4 samples.

Results

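A set of 106 genes of the green alga Haematococcus lacustris (also called Haematococcus pluvialis) was abundant in both libraries from cultures fed 15 mM nitrate and was listed at 0 in both libraries from cultures fed 2 mM nitrate. The set was chosen from the measured values, out of the 13248 genes of the expression table. A member had a value above 0 in each 15 mM library, a 15 mM mean of 200 FPKM or more, and a listed 0 in each 2 mM library. FPKM is a fragment count scaled to gene length and to all mapped fragments, and the deposited values were treated as FPKM because the labels do not state their unit. The members were 106 of the 933 genes (11.4%) that reached 200 FPKM at 15 mM.

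Haematococcus lacustris is a unicellular freshwater alga known for the red ketocarotenoid astaxanthin. Nitrate is a nitrogen source that the alga reduces to ammonium and builds into amino acids, nucleotides and chlorophyll. As background, well-fed cells commonly swim with flagella as macrozoids, while under stresses such as a shortage of nitrogen cells lose their flagella, become palmelloid cells and store astaxanthin.

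All 4 libraries came from strain CCAP 34/8, grown in illuminated bubble columns run as continuous cultures that differed, by their labels, in the nitrate of the feed. Replicates 1 and 2 were fed 2 mM and the other replicates 1 and 2 were fed 15 mM. The study's title speaks of macrozoids and palmelloid cells, but no label says which cell form a library held. No label says either whether replicates were separate cultures, so their spread may be technical.

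The identifiers of the table carry no gene names. None of the 13248 identifiers (0 matched) occurred in the gene table of 30548 genes of another assembly of the species, ASM3014472v1. Product, position and sequence are therefore not given for any member, markers of the cell forms could not be looked up, and the members are described by level, by listing in each library and by identifier number. As a measure of the libraries, 3262 and 3435 genes were above 0 at 2 mM and 11658 and 10794 at 15 mM, while the summed FPKM lay between 1293713 and 1498832. The 2 mM libraries did list low values, but far fewer than the 15 mM libraries. Values above 0 and under 10 FPKM numbered 157 in replicate 1 and 145 in replicate 2 of the 2 mM libraries. The 15 mM replicates held 4028 and 3117 such values, and the cause of this difference was not tested. The lowest value listed in the 2 mM replicates was 0.356 and 0.268 FPKM. In the 15 mM replicates the lowest was 0.0374 and 0.0716 FPKM. In libraries made from whole cultures, fewer cells of one type and less RNA of a gene per cell cannot be told apart.

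The levels of the members at 15 mM spanned more than an order of magnitude. In replicate 1 the lowest member stood at 183 FPKM, the median at 343 FPKM and the highest at 6646 FPKM. In replicate 2 these values were 174, 302 and 5014 FPKM. Most members lay near the lower end of this range. By mean level, 47 members stood at 200 to 300 FPKM, 30 at 300 to 500 FPKM, 20 at 500 to 1000 FPKM, 5 at 1000 to 2000 FPKM and 4 above 2000 FPKM. The plot of ranked members shows this long, flat tail.

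**Figure D1:**
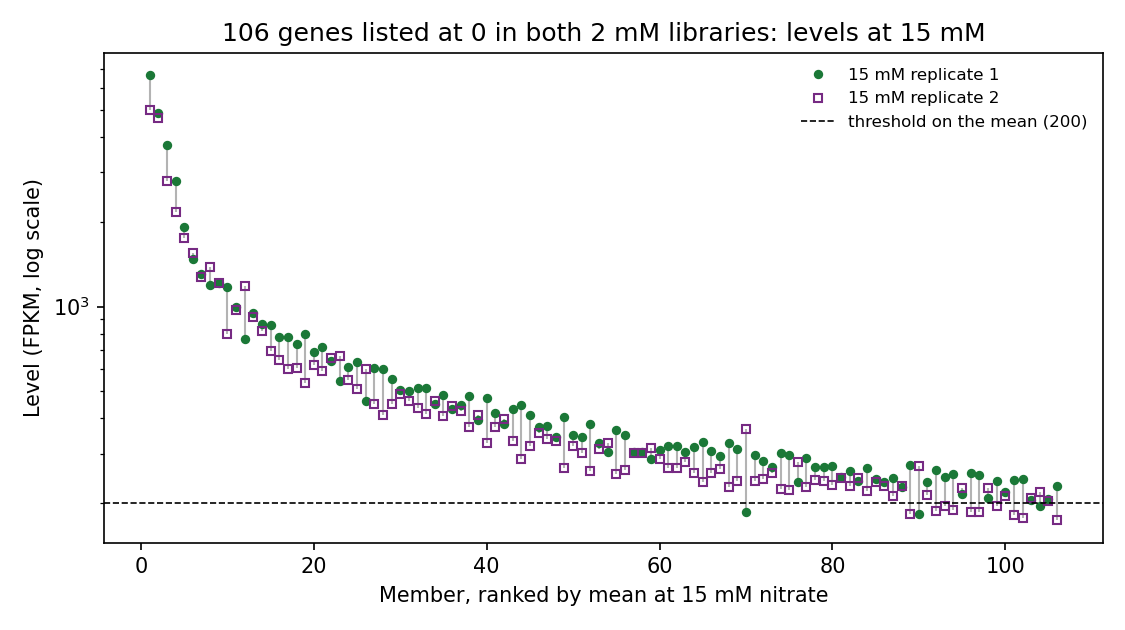
Level of each of the 106 members in both 15 mM libraries (FPKM, log scale), ranked by the mean, with a grey line joining the values of a gene and a dashed line at the 200 FPKM that the mean had to reach. A few members stand far above the rest, and from 1000 FPKM downward the levels fall gradually to the threshold.

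The member with the highest mean at 15 mM, HaLaN_29182, stood at 6646 FPKM in replicate 1 and at 5014 FPKM in replicate 2 (5830 ± 1154 FPKM, SD, n = 2). It was listed at 0 in both 2 mM libraries, and it ranked at position 31 of the whole table by mean at 15 mM. No fold is given for it or for any other member, since the 2 mM value is a listed 0.

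The highest members held much of the summed level. The 106 members together held 4.33% of the summed FPKM of 15 mM replicate 1 and 3.77% of that of replicate 2. Of the members' own sum, the 4 highest held 28.1% and 25.9% in these libraries, and the 20 highest held 53.8% and 53.4%. A small number of abundant genes therefore carried a large share of the sum.

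The threshold of 200 FPKM did not fall in a gap. The members just inside it had means of 202, 205 and 206 FPKM, and the genes just outside it, also at 0 in both 2 mM libraries, had means of 199, 196 and 196 FPKM. At any level, 5596 genes were listed in each 15 mM library and in neither 2 mM library, with a median of 15.2 FPKM, so the members are the upper 1.89% of these.

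The share of genes listed at 0 in both 2 mM libraries fell as the level at 15 mM rose. It was 23.5% of 782 genes at 100 to 200 FPKM, just under the threshold. Within the abundant genes it was 16.4% of 286 at 200 to 300 FPKM, 12.7% of 236 at 300 to 500 FPKM, 10.8% of 185 at 500 to 1000 FPKM, 5.81% of 86 at 1000 to 2000 FPKM and 2.86% of 140 at 2000 FPKM or more. Members thus became rarer among more abundant genes, without vanishing at the top of the range.

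The genes at 0 in a single 2 mM library became rarer faster. At 200 to 300 FPKM there were 40 of these beside 47 members. At 500 to 1000 FPKM there were 9 beside 20 members, at 1000 to 2000 FPKM 1 beside 5, and at 2000 FPKM or more 1 beside 4. Below 500 FPKM the genes at 0 once were nearly as many as the members, and from 500 FPKM upward they were fewer.

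**Figure D2:**
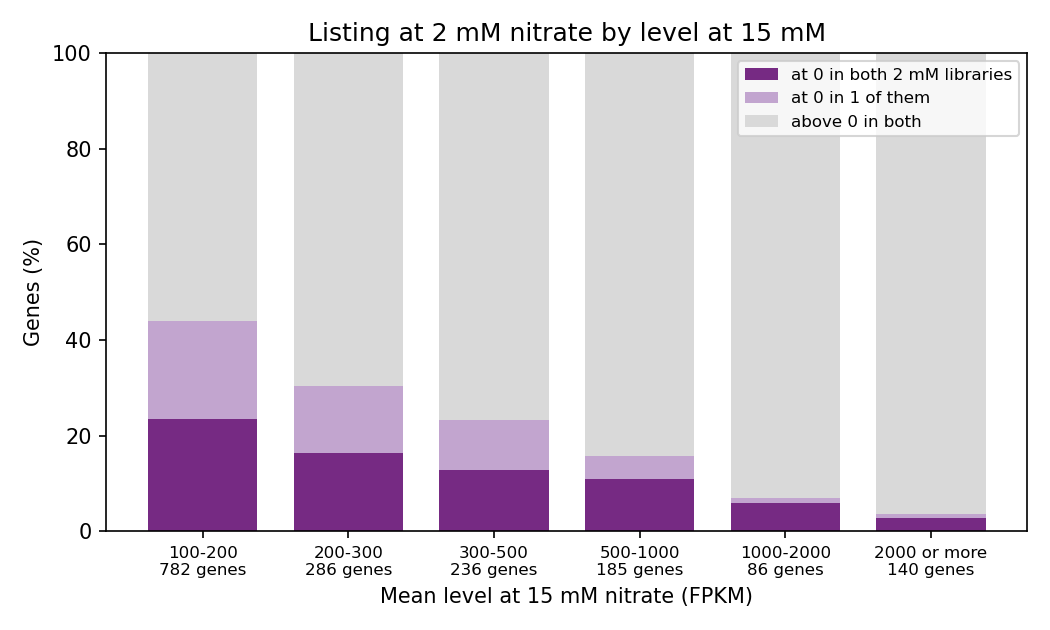
Share of genes (%) at 0 in both, in 1 or in none of the 2 mM libraries, by mean level at 15 mM (FPKM), for genes above 0 in both 15 mM libraries; the number of genes stands under each bar. The share at 0 in both falls from 23.5% at 100 to 200 FPKM to 2.86% at 2000 FPKM or more.

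The 751 abundant genes above 0 in both 2 mM libraries show what levels were listed there. Their median at 2 mM was 543 FPKM in replicate 1 and 554 FPKM in replicate 2, beside 507 and 471 FPKM at 15 mM, and the ratio of the 2 mM mean to the 15 mM mean had a median of 1.03. Very low values were rare among them. The 2 mM mean was under 50% of the 15 mM mean in 96 genes, under 25% in 22 genes, under 10% in 2 genes and under 5% in 0 genes, the lowest standing at 6.11%. A total of 7 genes were under 100 FPKM in both 2 mM libraries, and 1 was under 50 FPKM in both.

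Between these genes and the members there was therefore a sparsely filled range of 2 mM levels. The 76 abundant genes above 0 in a single 2 mM library filled it only in part. They were at 0 in replicate 1 in 41 cases and at 0 in replicate 2 in 35 cases, and in the library that listed them they stood at 7.94 to 1615 FPKM with a median of 200.4 FPKM. In 19 of these 76 genes the listed 2 mM value exceeded the gene's mean at 15 mM, and in 4 of them it was under 50 FPKM. A gene abundant at 15 mM was thus mostly either listed at a sizeable level at 2 mM or listed at 0. Whether the 0 stands for a low level or for a value that was not estimated cannot be told from the table.

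The choice was repeated with 1 library of each condition and then read in the libraries left out. The rule for the members had used all 4 libraries, so this reading describes the same values and is no separate support. Of the 967 genes at 200 FPKM or more in replicate 1 at 15 mM, 169 were at 0 in replicate 1 at 2 mM. In the other 2 mM library, 123 of these 169 (72.8%) were also at 0, against 33 of the 798 (4.14%) that had been above 0. Choosing with replicate 2 at 2 mM instead, 123 of 156 (78.8%) were at 0 in the other library, against 46 of 811 (5.67%). Of the 123 genes, the same in both choices, 103 were members.

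With replicate 2 at 15 mM the picture was much alike. Of 145 genes at 0 in replicate 1 at 2 mM, 103 (71.0%) were at 0 in the other 2 mM library, against 34 of 755 (4.50%). Of 137 at 0 in replicate 2 at 2 mM, 103 (75.2%) were at 0 in the other, against 42 of 763 (5.50%). Of these 103 genes, again the same in both choices, 96 were members. In all 4 ways of choosing, most genes at 0 in 1 of the 2 mM libraries were at 0 in the other. Few genes above 0 in the first were at 0 in the second. Most genes of the whole table that were at 0 in 1 of these libraries were also at 0 in the other. Of all 13248 genes, 8827 (66.6%) were at 0 in both, and 3262 and 3435 were above 0 in replicates 1 and 2. This 66.6% is a share of all genes, unlike the shares above, which are of genes already at 0 in 1 library. Taken only over the genes of the table at 0 in 1 library, the share is higher than 66.6%. The recurrence is therefore not particular to the abundant genes. The 4 ways share libraries and genes, genes are not replicates, and levels were not matched between the genes compared, so no test is given.

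**Figure D3:**
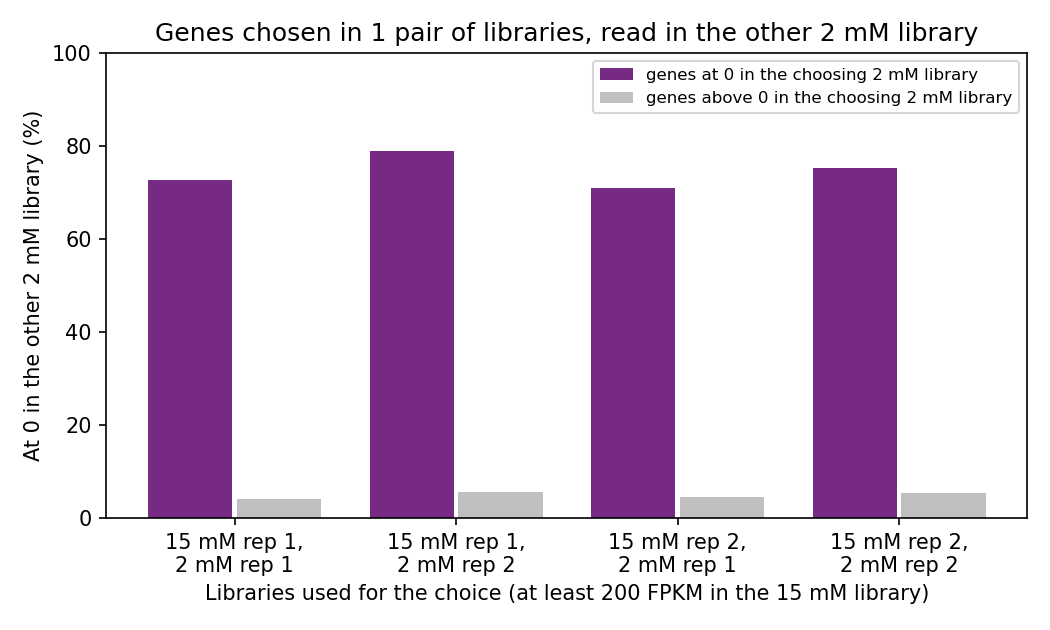
Share of genes (%) at 0 in the 2 mM library not used for the choice, for the 4 ways of choosing with 1 library of each condition. Purple bars are genes at 0 in the choosing 2 mM library (71.0% to 78.8%), and grey bars are genes above 0 in it (4.14% to 5.67%).

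The genes chosen in this way and then found above 0 in the other 2 mM library were not all low. Those chosen with replicate 1 of both conditions numbered 46, with values of 7.94 to 1884 FPKM and a median of 190 FPKM. A 0 in a single 2 mM library therefore did not show that the gene was at 0 in its replicate.

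The level at 15 mM also carried over to the library not used. Of the 169 genes chosen with replicate 1 of both conditions, 159 (94.1%) were above 0 in replicate 2 at 15 mM and 130 (76.9%) were at 200 FPKM or more there, against 91.5% of the 798 genes above 0 in that 2 mM library. Of the 145 chosen with replicate 2 at 15 mM and replicate 1 at 2 mM, 130 (89.7%) reached 200 FPKM in replicate 1 at 15 mM, against 96.7% of the 755. These shares were not compared at matched levels. The median 15 mM mean was 317 FPKM over the 106 members and 492 FPKM over the 751 genes above 0 in all 4 libraries.

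Within the members, the 15 mM libraries lay close together. The larger value was within 1.2 times the smaller in 57 of the 106 members (53.8%), within 1.5 times in 102 and within 2 times in 106. Among the 751 abundant genes above 0 in all 4 libraries, 506 (67.4%) lay within 1.2 times and 725 (96.5%) within 1.5 times. Both 15 mM libraries reached 200 FPKM in 93 members, and the other 13 entered by their mean.

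The members leaned toward replicate 1. The value was higher in replicate 1 than in replicate 2 at 15 mM in 84 of 106 members (79.2%), with a median ratio of 1.13. In the 751 genes above 0 in all 4 libraries it was higher in 458 (61.0%), with a median ratio of 1.05, and in the 76 genes at 0 in a single 2 mM library it was higher in 42 (55.3%), with a median ratio of 1.02. The SD of the log2 ratio of single genes was 0.27 over the members and 0.27 over the 751 genes. The lean rests on 1 pair of libraries and was not tested.

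The largest ratio between the 15 mM libraries among the members was that of HaLaN_03002, with 186 FPKM in replicate 1 and 366 FPKM in replicate 2 (276 ± 127 FPKM, SD, n = 2). It ran opposite to the lean of the members, with a larger value 1.97 times the smaller. Replicate 1 was under 200 FPKM, and the gene entered by its mean. Like all members it was listed at 0 in both 2 mM libraries.

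**Figure D4:**
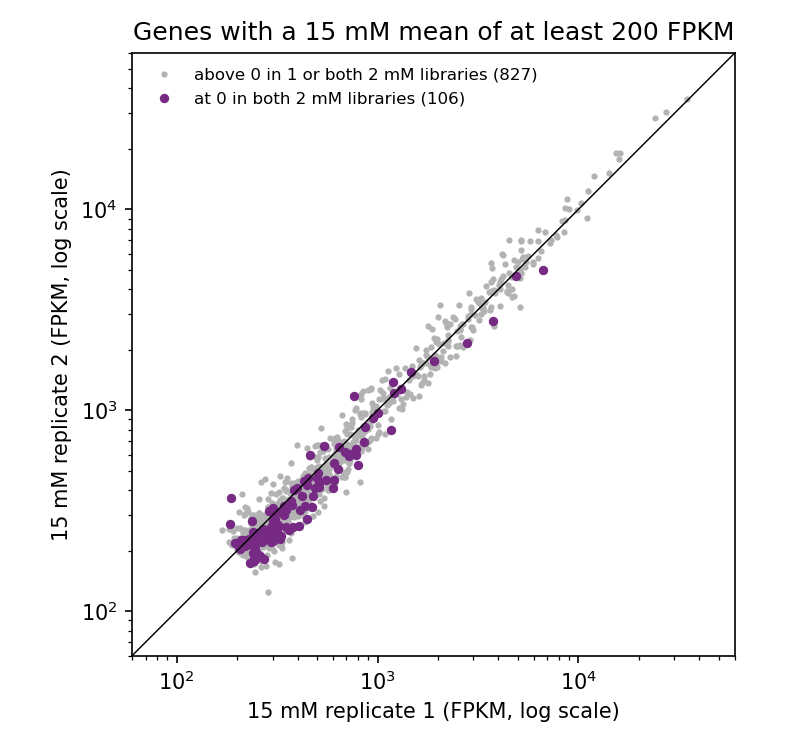
Level in replicate 1 against replicate 2 at 15 mM (FPKM, log scales) for the 933 genes with a 15 mM mean of at least 200 FPKM; purple points are the 106 members, grey points the other 827 genes, and the line marks equal values. The members follow the line, with 84 of 106 on the side of replicate 1.

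The identifiers of the table end in a running number, and 22 of the 106 members (20.8%) bore a number next to that of another member. These 22 formed 9 runs, of which 1 held 4 members, 2 held 3 and 6 held 2. Among the 751 genes above 0 in all 4 libraries, a group with many more numbers to meet, 120 (16.0%) bore a number next to another of the group. The table does not say whether consecutive numbers are neighbouring genes, nor are the rules for counting reads over overlapping or near-identical genes given in the sources used here.

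Pairs of consecutive numbers were then taken among all 933 abundant genes. There were 90 such pairs, and 17 of them held a member. Both genes were members in 13 of these 17 pairs (76.5%), the partner was above 0 in both 2 mM libraries in 3 pairs and above 0 in 1 of them in 1 pair. Both genes were above 0 in both 2 mM libraries in 64 pairs. The pairs not yet named held no member and at least 1 gene at 0 in a single 2 mM library. Of all 933 abundant genes, 80.5% were above 0 in both 2 mM libraries. Many pairs above 0 throughout are therefore to be met from that share alone, and no likeness is read from the 64.

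Within a wider window of 10 numbers on either side, 74 abundant genes lay near a member. Of these, 27 (36.5%) were members themselves, beside 11.4% among all abundant genes. The 27 include the 22 members of the consecutive runs, so the higher share rests mostly on those runs. Of the 83 pairs of abundant genes within this window that held a member, both genes were members in 30. Consecutive numbers made up 13 of these 30 pairs, and some of the others lay within a run. Whether a grouping reaches beyond the runs was not tested. Both windows were chosen after the identifiers of the members had been seen, and no test is given.

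The levels within a run were close in some cases and not in others. In the run of 4, the members stood at 316, 364, 404 and 319 FPKM in replicate 1 at 15 mM and at 257, 255, 266 and 267 FPKM in replicate 2. The highest mean of that run was 1.17 times the lowest. In the most abundant run, of 2, the members stood at 2799 and 3743 FPKM in replicate 1 and at 2160 and 2794 FPKM in replicate 2. They ranked among the 4 highest members. The widest run, also of 2, held means of 365 and 1513 FPKM, a ratio of 4.14. In 4 of the 9 runs the highest mean was within 1.5 times the lowest.

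Identifiers next to a member, members left out, were looked up at any level. Of 186 such numbers, 69 were in the table, and 51 of the 69 (73.9%) were at 0 in both 2 mM libraries, with a median of 38.2 FPKM at 15 mM. Beside the 751 genes above 0 in all 4 libraries, 355 of 578 (61.4%) were at 0 in both, with a median of 20.4 FPKM. Of all 13248 genes, 8827 (66.6%) were at 0 in both, and the median over the table was 13.9 FPKM at 15 mM. Both shares lie near that of the table, but both sets of neighbours had higher medians and levels were not matched. Each of these sets of neighbours leaves out genes by their own 2 mM values, and nothing is read from the difference. None of the 24 identifiers with a letter t before the number was a member (0 of 106).

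The comparison of 2 mM with 15 mM over the whole table gives the background. limma called 5326 of 11815 genes tested (45.1%) lower at 2 mM and 469 (3.97%) higher at a Benjamini-Hochberg adjusted p under 0.05. The members had been chosen by this contrast, and all 106 were called lower, with limma adjusted p-values from 0.000582 to 0.0018. These p-values do not measure replicate spread at 2 mM, where both values of each member are 0. Of the calls over all genes, 91.9% were lower, but 67.7% after quantile normalization, and the median log2 difference of all genes moved from -2.41 to 0.24. The median fitted log2 difference of the members, which is no bound on a fold, was -8.30, and -6.72 after quantile normalization.

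Over all 933 abundant genes, members included, the same fit called 232 (24.9%) lower and 116 (12.4%) higher at 2 mM. The members made up 106 of these 232, a number that their choice fixes.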

How the data were processed

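Per the labels, RNA sequencing used a kit for total RNA, although the molecule is given as polyA RNA. The authors deposited 1 table of 13248 genes and 4 libraries, treated here as FPKM because StringTie is named in the submitters' processing notes (with FastQC, HISAT2 and limma, no versions) and the library sums are unequal. The sources used here do not give aligner settings, build, annotation or strand handling. Depth is unknown, so no detection limit is given; 25 values above 0 written without a decimal point were divided by 1000, none of them (0) in a member.

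Groups came from the sample titles. The contrast was fitted with limma 3.58.1 (R 4.3.3) on log2(FPKM + 1) over genes with a mean of at least 1. The fit used an intensity trend, was two-sided, and was tried on simulated data. No outcome of that trial is given, and it is not read as a check on calls for genes without spread between replicates. Other values were computed with Python 3.11.15 and pandas 2.3.3, and the figures with matplotlib 3.10.9. The members and lists were chosen with earlier results of these data known. Of the members, only the one with the highest mean and the one with the largest ratio between 15 mM libraries are named by identifier. Alternatives changed the pseudocount, filters, scaling, trend, replicate block, division, threshold and libraries.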

Additional observations from a re-analysis of the deposited data

How the results depend on the processing

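The number of members was 290 with a mean of at least 100 FPKM and 29 with 500 FPKM, and 103 to 147 when 1 library was left out; with the values as deposited it was 117, which kept the 106, and the other alternatives gave 93 and 100. The share of abundant genes at 0 in both 2 mM libraries was 16.9% from 100 FPKM, 7.06% from 500 FPKM and 11.4% to 15.8% without 1 library. All 106 members were called lower in each of 13 alternative fits, as their choice fixes. Over all genes, the lower calls were 2400 of 6393 genes tested with a mean of at least 10 FPKM, beside 5326 of 11815 in the main fit. That filter tests fewer genes, so these counts are not alike. After quantile normalization the lower calls were 1198 of 11815. The higher calls were 297 with libraries centred on genes listed in all of them, 267 with the replicate block and 226 to 867 without 1 library (814 and 867 without 2 mM replicates 1 and 2, 246 and 226 without 15 mM replicates 1 and 2), where a lone sample takes its spread from the other group. Deviations from the group means were uncorrelated between libraries of the same number (r = -0.00094 across 11815 genes, which are not independent), so the replicate block pairs libraries by number only; with it, 4697 genes were lower. The other alternatives stayed within 1.5 times, and the causes of these shifts were not tested.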
